A study of Homo sapiens with 4 samples.

Results

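The genes described here encode the pumps that move calcium out of the cytosol and the proteins that let it back in when internal stores run low. There are 10 of them: ATP2A2, ATP2A3, ATP2B1, ATP2B2, ATP2B3, ATP2B4, ATP2C1, ORAI1, STIM1 and STIM2. They were taken by name, as every probe set whose platform symbol is exactly one of these, which gave 38 of the 49395 probe sets in the deposited table and 10 of 18132 genes. Probe sets of 1 gene share their target, so they are repeat readings of a gene and not replicates of a condition.

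The cells were U87MG, an established human glioblastoma line, maintained at 0.2% oxygen. The 2 groups received the PCMV control vector or the NeuroD2 expression vector, and RNA was taken 48 hours after transfection. Low oxygen was thus common to both groups, and no normal-oxygen group was analysed here. NeuroD2 is a basic helix-loop-helix transcription factor of neuronal differentiation, and the comparison addresses how its overexpression bears on transcript levels in hypoxic glioblastoma cells. Each group had 2 arrays (PrimeView, 1 colour), which the labels call biological replicates without saying how the cultures were kept apart. The p-values thus rest on the spread between these samples only, pooled in part over all probe sets. The share of cells that took up the vector is not given in the sources used here. In bulk RNA, a change in fewer cells and a smaller change in every cell cannot be told apart.

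A resting cell keeps its cytosolic calcium far below that of the outside medium and of the endoplasmic reticulum. The plasma membrane calcium ATPases (ATP2B genes) export calcium from the cell. The sarco/endoplasmic reticulum ATPases (ATP2A genes) refill the internal store, and the secretory pathway ATPase ATP2C1 loads the Golgi with calcium and manganese. When the store empties, the sensors STIM1 and STIM2 in the membrane of the endoplasmic reticulum open the ORAI1 channel in the plasma membrane, a route called store-operated calcium entry. In glioma lines this route is a well-known source of calcium signals.

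The result that stands out among these genes concerns ATP2B1 and, less firmly, ATP2B4, so the sequence before the start of each is shown. Both are from the RefSeq table of promoters on GRCh38.p14, in which 8 of the 10 members had an entry. The ATP2B1 gene lies on chromosome 12 from 89588049 to 89709366 on the minus strand, and the window holds the 250 bases before its outermost start, chr12:89709367-89709616. The ATP2B4 gene lies on chromosome 1 from 203626832 to 203744081 on the plus strand, and its window is chr1:203626582-203626831. Capitals mark matches to the E-box CANNTG, the general recognition sequence of basic helix-loop-helix factors, and to the GC box GGGCGG on either strand.
ATP2B1: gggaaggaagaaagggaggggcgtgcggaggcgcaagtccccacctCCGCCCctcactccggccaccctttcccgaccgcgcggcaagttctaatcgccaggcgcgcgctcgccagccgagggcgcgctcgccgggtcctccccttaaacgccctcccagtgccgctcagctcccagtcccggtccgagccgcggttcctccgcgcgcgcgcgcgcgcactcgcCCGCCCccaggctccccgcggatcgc
ATP2B4: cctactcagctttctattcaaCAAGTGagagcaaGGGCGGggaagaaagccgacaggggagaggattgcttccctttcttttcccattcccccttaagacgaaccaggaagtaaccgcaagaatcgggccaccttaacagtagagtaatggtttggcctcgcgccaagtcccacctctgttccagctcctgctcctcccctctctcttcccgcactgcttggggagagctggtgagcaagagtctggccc

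The ATP2B1 window held 0 matches to CANNTG and 2 to GGGCGG, and 75.2% of its bases were G or C. The ATP2B4 window held 1 E-box match, CAAGTG, starting at position -229 from the gene's start, and 1 GC box, with 55.6% G or C. Among all 35116 windows of the same length, 61.8% held CANNTG and 42.6% held GGGCGG. Of the 18 windows of the 8 matched members, 8 held CANNTG and 14 held GGGCGG. The narrower E-box CAGCTG, held by 14% of all windows, was found in 3 of the 4 windows of STIM1, and CAGATG, searched on both strands and held by 12.2%, in 1 of the 2 windows of ATP2A2. These motifs are special cases of CANNTG. Windows of the same gene can overlap, so the counts of windows are not counts of separate sites. The STIM1 windows starting at 3855414 and 3855453 overlap and share the same CAGCTG. The ATP2B2 windows starting at 10505585 and 10505587 are nearly the same stretch. A match describes the letters in the window only, and the lack of one says only that the letters are not there.

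**Figure D1:**
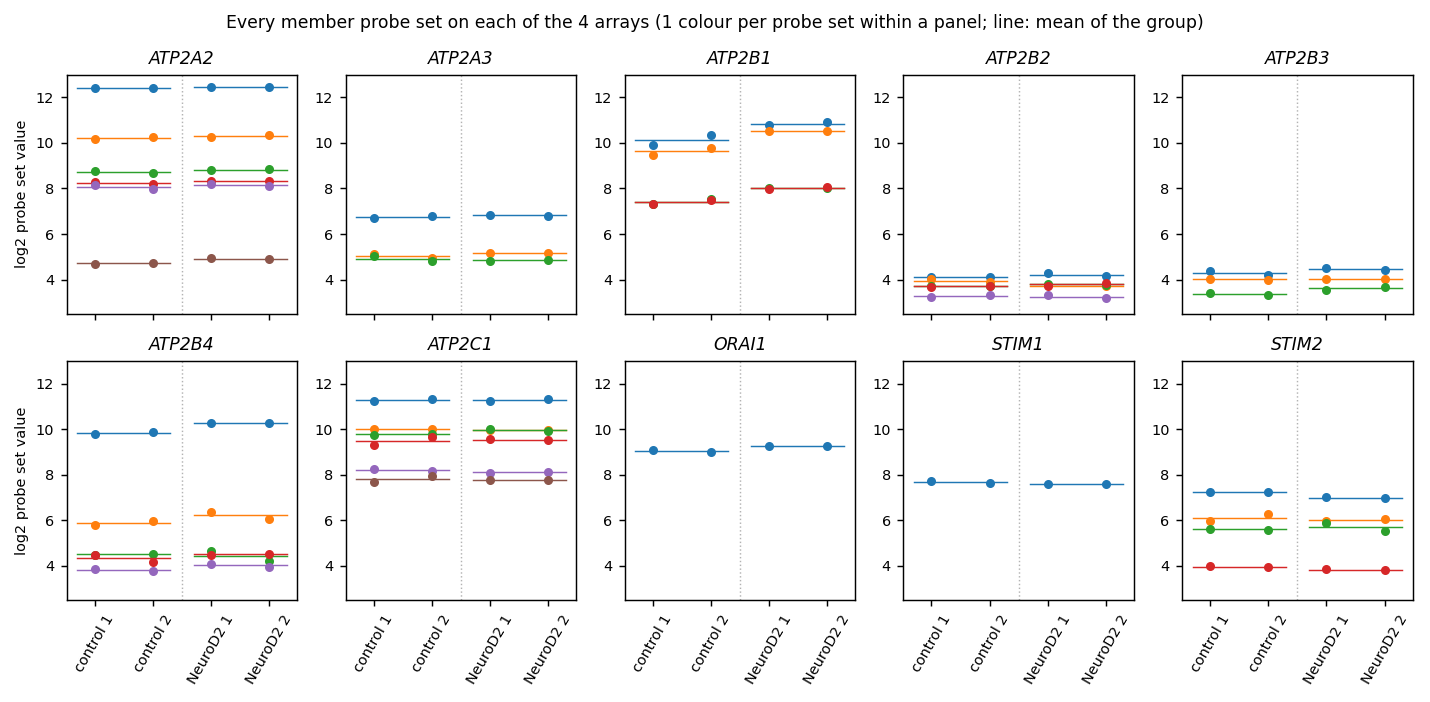
Log2 value (vertical axis) of each of the 38 member probe sets on the 4 arrays (horizontal axis), 1 panel per gene; points are single arrays and lines are group means, with 1 colour per probe set within a panel. All 4 ATP2B1 probe sets lie higher on the NeuroD2 arrays than on any control array (the dimmest pair nearly coincide). Probe sets of ATP2C1 differ by -0.10 to 0.19 between the groups, and those of ATP2A3 by -0.08 to 0.15.

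The arrays were alike in overall level, with medians over the 49293 probe sets fitted between 5.97 and 5.99. NEUROD2, the gene carried by the vector, read 5.46 and 5.35 on the control arrays and 7.37 and 7.82 on the NeuroD2 arrays on its brightest probe set (difference 2.19, adjusted p = 0.00707 by limma). On its other 2 probe sets the differences were -0.07 and -0.21, and neither passed the test. With the mean of the 3 probe sets the difference was 0.64 (adjusted p = 0.013), and without either control array NEUROD2 did not pass (0.18 and 0.179), as no probe set did. Of 6 measured markers of a mesenchymal glioblastoma line, 5 lay at or above the median level of all probe sets, as did 0 of 3 endothelial, 0 of 3 epithelial, 1 of 4 immune, 1 of 5 astrocyte, 2 of 3 oligodendrocyte-lineage and 3 of 5 neuronal markers. Each marker was read on its gene's brightest probe set. The share of all genes at or above that median on this reading is not given, so these counts are not calls of expression. Of all the markers 2 passed the test, both lower on the NeuroD2 arrays. They were the mesenchymal marker FN1 (-0.63) and the neuronal marker SNAP25 (-0.59), each at an adjusted p of 0.0419 by limma. Other mesenchymal markers went either way without passing, such as TNC (0.45) and CHI3L1 (-0.51), as did the neuronal STMN2 (0.21) and SYT1 (-0.45). The part of the markers in the members' differences was not tested. The control arrays were less alike than the NeuroD2 arrays, with median absolute gaps of 0.12 and 0.08. The 24 poly-A spike probe sets, which track labelling, had a mean of 6.95 on the array of control replicate 1, and of 7.96 to 8.03 elsewhere.

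With the NeuroD2 vector, ATP2B1 was higher by 0.59 to 0.90 on the log2 scale across its 4 probe sets, or 1.51-fold to 1.87-fold, and 3 of the 4 passed limma's test over all probe sets (adjusted p below 0.05). These were the only member probe sets to pass. In all, 3 of 38 (7.89%) passed upward and 0 downward, where 1.26% of all probe sets passed upward and 1.61% downward. The other 35 did not pass, and 11 of the 38 (28.9%) had an unadjusted p below 0.05, against 19.7% of all probe sets. The median difference was 0.09 over the members and 0.01 over all probe sets. With each gene read on its brightest probe set, 0 of the 10 genes passed, and 4 (40%) had an unadjusted p below 0.05. On this reading 1.24% of all genes passed upward and 1.85% downward, and 20.1% had an unadjusted p below 0.05. The groups did not overlap for 26 member probe sets. The NeuroD2 arrays were above the control arrays for 20 (52.6%) and below for 6 (15.8%), where the shares of all probe sets were 25.0% and 24.3%.

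**Figure D2:**
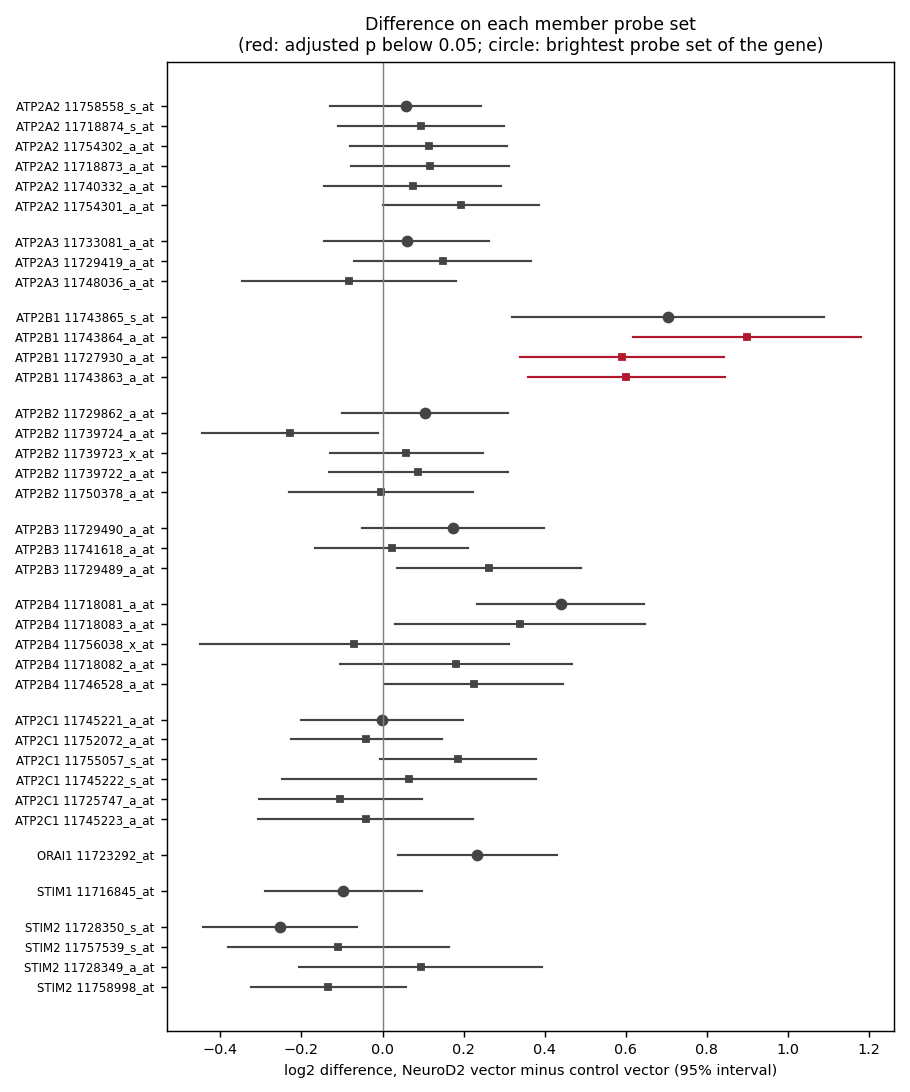
Log2 difference (NeuroD2 vector minus control vector) with its 95% interval from limma (horizontal axis) for each of the 38 member probe sets (vertical axis), n = 2 arrays per group. The 3 probe sets in red, all of ATP2B1, passed the adjusted test, and the intervals of the brightest ATP2B1 and ATP2B4 probe sets also lie above 0.

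ATP2B1 encodes the plasma membrane calcium pump PMCA1, which is found in nearly all cell types. Its probe set 11743864_a_at read 9.49 and 9.78 on the control arrays and 10.53 and 10.54 on the NeuroD2 arrays. The groups were separated by a gap of 0.75, wider than the 0.29 between the control arrays. The difference was 0.90 (standard error 0.11, 95% interval 0.62 to 1.18), or 1.87-fold, and passed limma's test (adjusted p = 0.0252). Only 0.276% of all probe sets had a larger rise.

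A pair of dimmer ATP2B1 probe sets gave nearly the same values as each other. Probe set 11743863_a_at read 7.30 and 7.51 on the control arrays and 7.97 and 8.04 on the NeuroD2 arrays (difference 0.60, 95% interval 0.36 to 0.84, adjusted p = 0.042 by limma). Probe set 11727930_a_at read 7.30 and 7.54, then 8.01 and 8.01 (difference 0.59, 95% interval 0.34 to 0.84, adjusted p = 0.047 by limma). Both were lowest on control replicate 1 and highest on the NeuroD2 arrays, with group gaps of 0.46 and 0.47. Both lay close to the threshold, and 11727930_a_at did not pass with a robust prior (adjusted p = 0.0519 by limma).

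The brightest ATP2B1 probe set, 11743865_s_at, read 9.91 and 10.36 on the control arrays and 10.76 and 10.91 on the NeuroD2 arrays. Its groups did not overlap either, but the control arrays were 0.45 apart, slightly more than the gap of 0.41 between the groups. Its difference of 0.70 (standard error 0.16, 95% interval 0.32 to 1.09) did not pass (adjusted p = 0.0793 by limma), though it did with an intensity trend (0.0154) or a filter on dim probe sets (0.0283). With the mean of the 4 probe sets as the gene's value, ATP2B1 differed by 0.70 and passed (adjusted p = 0.0146 by limma).

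All 4 ATP2B1 probe sets read lower on control replicate 1 than on control replicate 2, by 0.21 to 0.45, and the poly-A and hybridisation spikes were lowest on the same array. Without control replicate 1 the 4 differences were 0.47 to 0.75, and without control replicate 2 they were 0.70 to 1.05. Without either control array 0 of all 49293 probe sets passed (smallest adjusted p = 0.18 and 0.179 by limma), so these fits do not bear on the ATP2B1 calls. Without either NeuroD2 array 45 probe sets passed in all, and the 3 of ATP2B1 did not (adjusted p from 0.163 to 0.285 by limma). The 3 calls were also lost with the replicate number as a block (0.0682 to 0.096). The 18 hybridisation spike probe sets had a group difference of 0.39 in the same direction, which was 0.22 once control replicate 1 was left out. For the 24 poly-A spike probe sets the group difference was 0.53, and 0.018 without that array. The part of the spikes' difference in the ATP2B1 result was not tested.

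ATP2B4 encodes PMCA4, the other plasma membrane pump with a wide tissue range. Its brightest probe set, 11718081_a_at, read 9.77 and 9.89 on the control arrays and 10.27 and 10.28 on the NeuroD2 arrays. The groups were 0.37 apart and the control arrays 0.12 apart. The difference was 0.44 (standard error 0.08, 95% interval 0.23 to 0.65), or 1.36-fold, and did not reach the threshold (adjusted p = 0.0582 by limma). It passed when only the brightest probe set of each gene was fitted (adjusted p = 0.0416), with quantile normalization (0.0476), with an intensity trend (0.00668) and with a filter on dim probe sets (0.0156). It did not pass with the mean of the gene's 5 probe sets (difference 0.22, adjusted p = 0.165).

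The other 4 ATP2B4 probe sets were dimmer, and 3 of them lay below the median level of all probe sets. Probe set 11718083_a_at read 5.79 and 5.96 against 6.36 and 6.07, a difference of 0.34 (adjusted p = 0.215 by limma). Probe set 11746528_a_at read 3.85 and 3.75 against 4.09 and 3.96, a difference of 0.23 (adjusted p = 0.243 by limma). In both the NeuroD2 arrays were higher without overlap. On 11718082_a_at the difference was 0.18, with groups only 0.002 apart, and on 11756038_x_at it was -0.07 with overlapping groups.

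ATP2B2 and ATP2B3 encode PMCA2 and PMCA3, the isoforms with a more restricted distribution that includes neurons. All 5 ATP2B2 probe sets lay between 3.18 and 4.28 and all 3 ATP2B3 probe sets between 3.31 and 4.50, below the median of all probe sets. No detection calls were used here, so neither gene is called absent. ATP2B2 differences ran from -0.23 to 0.11, with 3 positive and 2 negative. The -0.23 was on 11739724_a_at, which read 4.03 and 3.88 against 3.75 and 3.70 (adjusted p = 0.229 by limma). ATP2B3 differences were all positive, from 0.02 to 0.26, the highest being on 11729489_a_at, which read 3.39 and 3.31 against 3.53 and 3.69 (adjusted p = 0.197 by limma). None of these 8 probe sets passed. Whether the differences of the 4 ATP2B genes differ from each other was not tested.

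ATP2A2 encodes SERCA2, the housekeeping pump of the endoplasmic reticulum. Its 6 probe sets, repeat readings of 1 gene, all had small positive differences, from 0.06 to 0.19. In 5 of them the NeuroD2 arrays were higher without overlap, where the share over all probe sets was 25.0%. The brightest, 11758558_s_at, read 12.40 and 12.41 on the control arrays and 12.46 and 12.46 on the NeuroD2 arrays, a difference of 0.06 (95% interval -0.13 to 0.24). The widest, on the dimmest probe set 11754301_a_at, was 4.70 and 4.74 against 4.95 and 4.88, a difference of 0.19 (standard error 0.08). None passed (adjusted p from 0.253 to 0.748 by limma). On the 5 brighter probe sets the upper ends of the 95% intervals lay at 0.24 to 0.31, so a rise of the size measured for ATP2B1 lay outside them.

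ATP2A3 encodes SERCA3, an isoform typical of blood, epithelial and endothelial cells. Its 3 probe sets gave differences of 0.06, 0.15 and -0.08, with overlapping groups in 2 of them. The brightest, 11733081_a_at, read 6.71 and 6.81 against 6.85 and 6.79 (adjusted p = 0.758 by limma). ATP2C1 encodes SPCA1, the calcium and manganese pump of the Golgi. Its brightest probe set, 11745221_a_at, read 11.24 and 11.31 on the control arrays and 11.24 and 11.31 on the NeuroD2 arrays, a difference of -0.0004 (95% interval -0.20 to 0.20). Of its 6 probe sets 2 had positive and 4 negative differences, from -0.10 to 0.19, and none passed. The 0.19 was on 11755057_s_at, which read 9.76 and 9.79 against 9.99 and 9.94 (adjusted p = 0.264 by limma). The direction of the brightest ATP2C1 probe set turned with quantile normalization and with centring on array medians (0.014 and 0.0051).

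ORAI1 encodes the pore subunit of the store-operated channel and has 1 probe set, 11723292_at. It read 9.07 and 8.99 on the control arrays and 9.25 and 9.28 on the NeuroD2 arrays. The NeuroD2 arrays were both higher, with 0.18 between the groups against 0.09 between the control arrays. The difference of 0.23 (95% interval 0.04 to 0.43, 1.18-fold) did not pass (adjusted p = 0.187 by limma), and it lay between 0.19 and 0.28 under the other settings.

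STIM1, the main sensor of store calcium, has 1 probe set, 11716845_at, which read 7.73 and 7.65 on the control arrays and 7.59 and 7.59 on the NeuroD2 arrays. The difference was -0.10 (95% interval -0.29 to 0.10, adjusted p = 0.568 by limma). STIM2, the sensor that responds to smaller drops in store calcium, has 4. On the brightest, 11728350_s_at, the values were 7.23 and 7.24 against 7.01 and 6.96. The NeuroD2 arrays were lower, with 0.22 between the groups and 0.02 between the control arrays. The difference was -0.25 (95% interval -0.44 to -0.06, adjusted p = 0.153 by limma), and it passed only with the filter on dim probe sets (0.0499). The other STIM2 probe sets differed by -0.11, 0.09 and -0.13, and none passed. So the channel gene read higher and the brightest probe sets of both sensors lower on the NeuroD2 arrays, by amounts that did not pass the adjusted test.

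The members are spread over 7 chromosomes, with ATP2A2, ATP2B1 and ORAI1 on chromosome 12 and ATP2B2 and ATP2C1 on chromosome 3. On chromosome 12, ATP2A2 lies from 110280616 to 110351093 and ORAI1 from 121626530 to 121643109 (RefSeq, GRCh38.p14), far from ATP2B1.

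Other genes of calcium handling were read from 8 lists of 122 genes, of which 115 had a probe set with a single symbol. The lists were written with earlier results of these data known, so their counts are not an independent test. On the brightest probe set of each gene 4 of the 115 passed, all lower, and 111 did not pass. Unadjusted limma p-values under 0.05 were found for 29 of the 115, where the share over all genes was 20.1%. Over all genes 1.24% passed upward and 1.85% downward. Whether the 4 lower calls exceed the share over all genes was not tested. The median difference over the 115 genes was -0.02, and list medians ran from -0.06 to 0.09.

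SLC8A1, the sodium/calcium exchanger NCX1, which exports calcium across the same membrane as the ATP2B pumps, showed the largest of these falls. On probe set 11735152_a_at it read 6.57 and 6.97 on the control arrays and 5.54 and 5.64 on the NeuroD2 arrays. The difference was -1.18 (standard error 0.14, adjusted p = 0.0221 by limma), with the NeuroD2 arrays lower without overlap. Its other, dimmer probe set, 11740612_a_at, read between 4.13 and 4.44 on all arrays and differed by 0.02. It was the 1 gene to pass among 10 of pump subunits and exchangers. That list had 3 lower calls with an intensity trend, 2 with only brightest probe sets in the fit and 3 with the mean of probe sets. It had 0 with the replicate block and without either NeuroD2 array.

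ORAI3, a relative of ORAI1 that can join the channel, fell on its brighter probe set 11744228_x_at from 8.37 and 8.32 to 7.89 and 7.81 (difference -0.50, adjusted p = 0.0416 by limma). On its other probe set, 11749888_x_at, the difference was -0.19 (adjusted p = 0.355). It was the 1 gene to pass among 17 partners of store-operated entry, whose median difference was -0.06. VDAC1, a channel of the outer mitochondrial membrane, fell from 11.72 and 11.71 to 11.15 and 11.08 (difference -0.60, adjusted p = 0.0262 by limma), the 1 gene to pass among 11 of mitochondrial calcium uptake. S100A13, a small calcium-binding protein, fell from 11.18 and 11.09 to 10.63 and 10.69 (difference -0.48, adjusted p = 0.047 by limma), the 1 to pass among 17 cytosolic calcium-binding proteins. Like those of ATP2B1, these 3 calls were lost without either NeuroD2 array and with the replicate block, and that of S100A13 also with a robust prior. Other settings gave more calls in the same lists. Partners of store-operated entry had 2 lower with an intensity trend, with the filter on dim probe sets and with the mean of probe sets, and 1 higher with the filter. Mitochondrial uptake had 3 lower with the trend and with the filter, and the cytosolic calcium-binding proteins 2 lower with the filter.

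In the other 4 lists 0 genes passed by limma. Of all genes on their brightest probe set, 20.1% had an unadjusted p below 0.05. Among 18 store release channels and their activators, 4 had an unadjusted p below 0.05, and the phospholipase gene PLCB4 had the largest difference (-0.64, adjusted p = 0.0697). Among 22 genes of calmodulin, calcineurin and NFAT signalling, 5 had an unadjusted p below 0.05, with CAMK1D, a calmodulin-dependent kinase, at -0.33 (adjusted p = 0.0973). Among 14 calcium buffers and chaperones of the endoplasmic reticulum, 2 had an unadjusted p below 0.05, with RCN3, an EF-hand protein of the secretory pathway, at 0.29 (adjusted p = 0.281). Among 6 relatives of the SERCA and Golgi pumps and SERCA regulators, 0 had an unadjusted p below 0.05, with ATP2A1, the muscle SERCA gene, at 0.19 (adjusted p = 0.275). With an intensity trend in the fit, the lists of store release channels (1 lower), reticulum buffers (1 higher) and calcineurin signalling (2 higher) had calls. Calcineurin signalling had 1 higher and 1 lower with the filter on dim probe sets, and reticulum buffers 1 higher with the mean of probe sets.

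**Figure D3:**
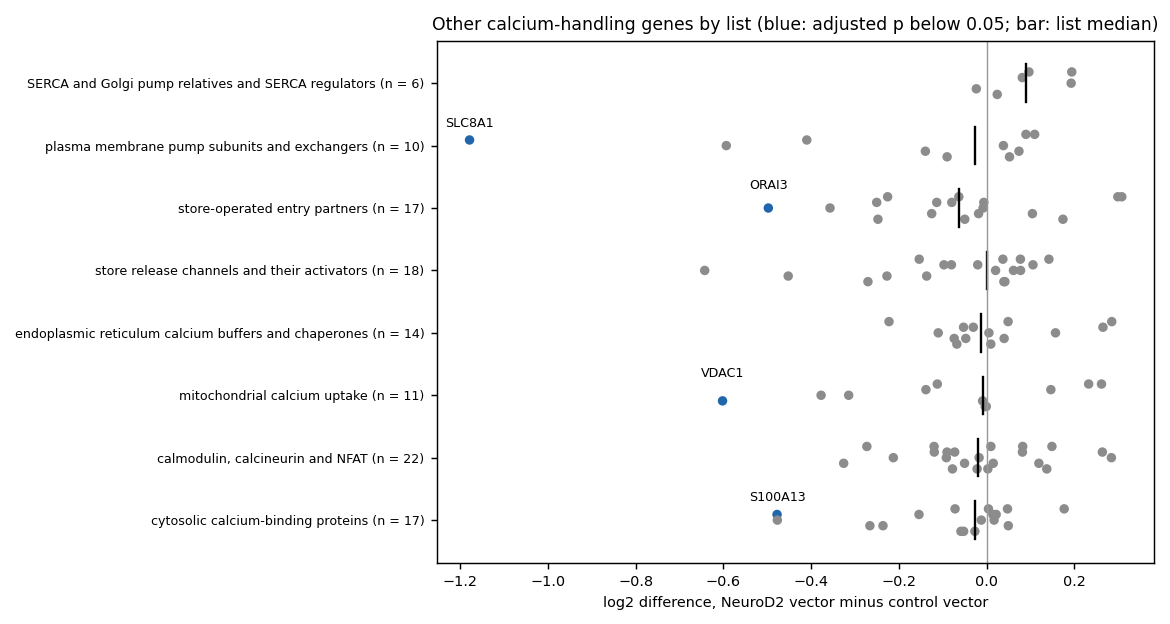
Log2 difference (NeuroD2 vector minus control vector, horizontal axis) of the brightest probe set of each of 115 calcium-handling genes, by list (vertical axis, n genes measured); black bars are list medians and blue points passed an adjusted p of 0.05. The 4 genes that passed, SLC8A1, ORAI3, VDAC1 and S100A13, all lie below 0, and list medians lie between -0.06 and 0.09.

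The ATP2B1 differences stayed above 0 in every setting run, while the calls did not all hold. Over the settings that kept its probe sets, 11743864_a_at ran from 0.75 to 1.05, 11743863_a_at from 0.50 to 0.70, 11727930_a_at from 0.47 to 0.71 and 11743865_s_at from 0.48 to 0.93. The brightest ATP2B4 probe set ran from 0.38 to 0.50. In each case the lowest value came without control replicate 1 and the highest without control replicate 2.

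**Figure D4:**
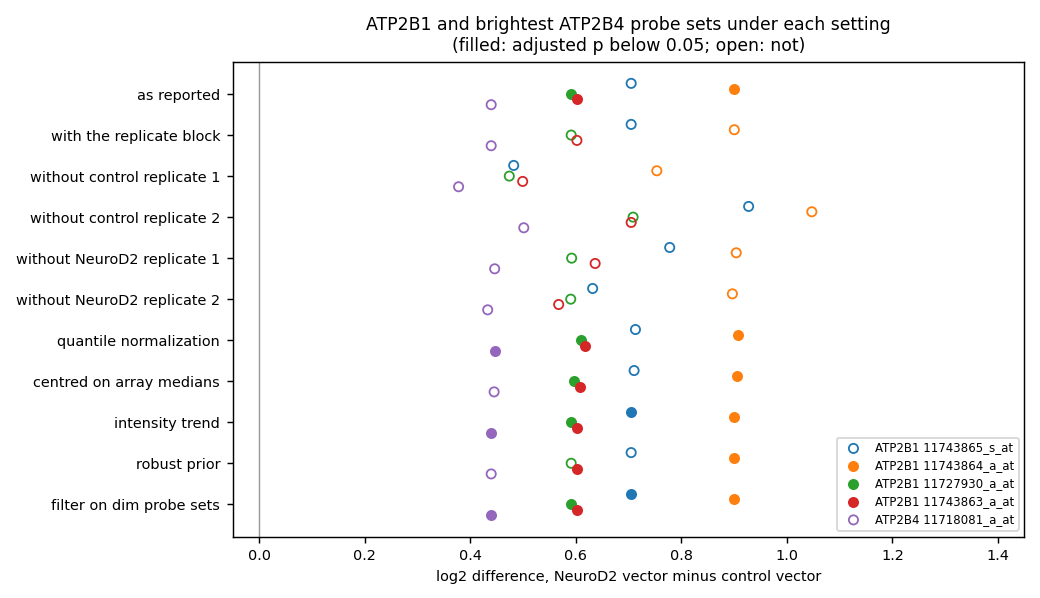
Log2 difference (NeuroD2 vector minus control vector, horizontal axis) of the 4 ATP2B1 probe sets and the brightest ATP2B4 probe set under each setting of the fit (vertical axis); filled circles passed an adjusted p of 0.05 and open circles did not. Every value lies above 0, and no circle is filled with the replicate block or when an array is left out; without either control array 0 of all probe sets passed.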

How the data were processed

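Biotin-labelled RNA of 4 U87MG samples was hybridised to PrimeView arrays, per the labels' protocols. The deposited values of 49395 probe sets were read from their range as log2 and as normalized between arrays by the authors, with the software and method not given in the sources used here. Probe sets were named through the platform annotation, and the members' gene identifiers matched RefSeq on GRCh38.p14.

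After 102 Affymetrix controls were left out, 49293 probe sets were fitted with limma 3.58.1 in R 4.3.3 (lmFit and eBayes, two-sided, group as the only term, 2 residual and 3.87 prior degrees of freedom). P-values were adjusted by Benjamini-Hochberg over all probe sets fitted, with a threshold of 0.05. An exact permutation of 2 arrays against 2 allows no p below 0.333 and was not used. The brightest probe set of a gene has the highest mean over the 4 arrays. The fit was run on simulated data with 200 changed probe sets and variances drawn from its own prior. That run checks the working of the fit and does not bear on the calls made here. Precision is limited by the number of arrays.

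The members and lists were chosen with earlier results of these data known. Besides members and NEUROD2, the text names up to 4 genes per list that passed, or else the gene with the largest absolute difference. Alternatives were a replicate block, each array left out, quantile normalization, median centring, a trend or robust prior in eBayes, a filter at the median level, only brightest probe sets in the fit, and probe sets averaged per gene.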

Additional observations from a re-analysis of the deposited data

Results flagged for a closer look

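The 18 hybridisation spike probe sets, which are not part of the cells' RNA, averaged 9.56 and 9.90 on the control arrays and 10.10 and 10.13 on the NeuroD2 arrays, a difference of 0.39 above the control level, and 18 of 18 were higher on both NeuroD2 arrays.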

How the results depend on the processing

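By limma, 1416 probe sets passed as reported, 4041 with an intensity trend and 4086 of the 24647 kept by the filter on dim probe sets; leaving out 1 array gave 0 to 45. At 0 calls, without control replicate 1 or 2, 10614 and 10006 probe sets had an unadjusted p below 0.05, and the lone control array is assumed to vary like the NeuroD2 arrays. Of the member probe sets, 3 passed upward as reported, 5 with the intensity trend (the 4 of ATP2B1 and the brightest of ATP2B4), the same number with the filter, and 0 without each array in turn. Downward, 0 passed as reported and 1 with the filter (STIM2). By brightest probe set, 0 member genes passed upward as reported, 1 with quantile normalization and 1 with only brightest probe sets in the fit. On the same reading 2 passed upward with the intensity trend, and 2 upward and 1 downward with the filter. With the mean of its probe sets as each gene's value, 1 member gene passed upward.

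The replicate number as a block left 90 probe sets in all and 0 member probe sets past the threshold. Deviations of same-numbered arrays correlated at r = 0.08 over all probe sets, and nothing in the labels says that a number marks a shared culture or day.

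Direction turned only for member probe sets that had not passed. ATP2C1 11745221_a_at differed by 0.014 with quantile normalization, by 0.0051 centred on medians and by -0.040 to 0.039 leaving out 1 array. The mean of the 6 ATP2C1 probe sets differed by 0.011. ATP2B2 11750378_a_at differed by 0.0018 when centred and by -0.081 to 0.073 leaving out 1 array, and ATP2B3 11741618_a_at by -0.0029 with quantile normalization. Leaving out 1 array also turned ATP2A3 11748036_a_at (-0.21 to 0.047), ATP2B4 11756038_x_at (-0.30 to 0.16), ATP2C1 11745222_s_at (-0.11 to 0.24) and 11745223_a_at (-0.17 to 0.090), and STIM2 11757539_s_at (-0.25 to 0.027) and 11728349_a_at (-0.068 to 0.26).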
